A study of Homo sapiens with 16 samples.

Results

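The autophagy core and receptor genes were a set of 41 genes chosen by symbol, all of which matched 1 row each of a count table of 43836 Ensembl genes. They were followed through RNA-seq of KG-1, a human acute myeloid leukemia line of myeloblast-like cells that grow in suspension, in 16 libraries, 2 for each of 8 conditions. All cells had been transduced with lentiviral particles and selected with puromycin. Control cells carried a non-target pLKO.1-puro construct, and FOXM1-KD cells an shRNA against FOXM1, a forkhead transcription factor of proliferating cells. Control cells received 0.3% DMSO for 48 h, 30 µM MK-2206 (an inhibitor of the kinase AKT) for 24 h, 50 µM STL427944 for 48 h, 0.75 µM AraC (cytarabine, a nucleoside analogue that blocks DNA synthesis) for 48 h or 100 nM venetoclax (an inhibitor of the survival protein Bcl-2) for 48 h. FOXM1-KD cells received DMSO, AraC or venetoclax at those concentrations for 48 h. The MK-2206 cells thus had a shorter incubation than the DMSO cells they are compared with. The study's methods describe the FOXM1-KD cells as a stable selected line, and the replicates as biological.

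Autophagy delivers parts of the cytoplasm to the lysosome. The ULK1 kinase complex starts the process, the class III PI3-kinase complex around BECN1 and PIK3C3 marks the membrane with a lipid, and WIPI proteins, the lipid transfer proteins ATG2A and ATG2B and the scramblases ATG9A and VMP1 extend it. A conjugation system (ATG3, ATG5, ATG7, ATG10, ATG12, ATG16L1 and the ATG4 proteases) couples the small ATG8 proteins, MAP1LC3A to GABARAPL2, to the growing membrane. Cargo receptors such as SQSTM1 (p62), NBR1 and OPTN hold cargo to the ATG8 proteins, and FUNDC1, BNIP3L and PINK1 act in the removal of mitochondria. AKT restrains FOXO factors and, through mTORC1, TFEB and its relatives, all of which are known to switch on genes of this pathway.

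Library totals ran from 7351755 to 21362546 counts, and the lowest totals belonged to the MK-2206 libraries (7351755 and 10330720). Mitochondrial genes took 6.68% and 18.4% of their counts, against 1.32% to 3.05% in the other libraries. CD34, a progenitor surface marker that KG-1 cells carry, had 12483 to 28951 counts in the control-cell libraries other than MK-2206, 0 to 4 in the 6 FOXM1-KD libraries, and 7 and 18 in the MK-2206 libraries. MPO, the granule enzyme myeloperoxidase, had 5 to 242 counts in those control-cell libraries, 28881 to 155753 in FOXM1-KD cells, and 3888 and 3424 in the libraries labelled as MK-2206 control cells. Across 12544 protein-coding genes other than the members, the MK-2206 libraries correlated at r = 0.51 to 0.58 with the other control-cell libraries and at 0.73 to 0.79 with FOXM1-KD libraries. Other markers were mixed. KIT averaged 0.918 CPM with MK-2206, 18.1 in control and 0.238 in FOXM1-KD cells with DMSO, and ITGAM 3.39, 110 and 0.897 in that order. CD4 averaged 37.0, 0.878 and 273 CPM, and the granule protease ELANE 18.7, 0 and 245. These lay toward the FOXM1-KD side, and LYZ, CTSG, CD33 and SPI1 did not. LYZ, the enzyme lysozyme, averaged 11.2 CPM (counts scaled to library size by TMM) with MK-2206, 16.5 in control and 919 in FOXM1-KD cells with DMSO. CTSG, a granule protease, averaged 5.15, 10.9 and 341 CPM in that order, and the myeloid surface protein CD33 18.7, 38.1 and 92.1. The MK-2206 libraries thus lay apart from the other control-cell libraries in CD34, MPO, KIT, ITGAM, CD4 and ELANE. They were not on the FOXM1-KD side in LYZ, CTSG, CD33 or SPI1, which averaged 55.2 CPM with MK-2206, 112 in control and 168 in FOXM1-KD cells with DMSO. ANPEP (12.1, 138 and 86.7 CPM in that order) and PTPRC (77.8, 207 and 170) were below both DMSO groups. The MK-2206 libraries were therefore compared with either DMSO group. The FOXM1-KD libraries lacked CD34. A check of genes that mark sample identity set 8 of the 16 libraries, those of FOXM1-KD and MK-2206, apart from the others. Neither the loss of FOXM1 nor the effect of MK-2206 can thus be told apart from other differences between the lines or samples. Whether samples or lines were exchanged was not tested. STL427944 replicate 2 was nearest to venetoclax control replicate 1 (r = 0.9895) and not to its own replicate (0.9659), and venetoclax control replicate 1 was likewise nearer to it than to its own replicate (0.9651).

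FOXM1 itself stood at 140.0 and 138.2 CPM in control cells with DMSO and at 48.8 and 81.8 in FOXM1-KD cells with DMSO, a log2 fold change of -1.08 ± 0.38 (SE, adjusted p = 0.056 by edgeR). Under AraC it was 181 and 156 CPM in control cells and 121 and 114 in FOXM1-KD cells (log2 fold change -0.56, adjusted p = 0.0124), and under venetoclax it was 121 and 127 against 50.6 and 57.0 (-1.20, adjusted p = 0.0113). With MK-2206 it was 21.7 and 19.8 CPM. FOXM1 RNA was thus lower in FOXM1-KD than in control libraries but still present, and under AraC the difference stayed short of 2-fold.

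In control cells with DMSO, 39 of the 41 members were measured with at least 10 counts in some library. ULK2, a paralogue of ULK1, never passed 5 counts and MAP1LC3A, an ATG8 protein, never passed 3, so neither is described further. Per length, that is in CPM per kilobase of exon, NCOA4, the receptor for ferritin, had the highest level, at 77.7 and 84.5. The ULK1-complex scaffold RB1CC1 followed at 32.7 and 35.5, then BNIP3L at 23.7 and 20.8, and these ranges did not overlap one another. From rank 5, SQSTM1 (14.6 and 15.6 CPM per kilobase) and NBR1 (14.8 and 15.2), neighbours overlapped, as did most of the middle of the order. ATG7 (2.90 and 2.56), the enzyme that activates ATG12 and the ATG8 proteins, WIPI1 (2.01 and 2.37), GABARAPL1 (0.960 and 1.21) and OPTN (0.917 and 1.08) stood at the low end, the last pair overlapping. Of the 4 ATG8 genes measured, GABARAPL2 (10.7 and 10.1) and MAP1LC3B (10.2 and 10.1) had the higher levels per kilobase.

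**Figure D1:**
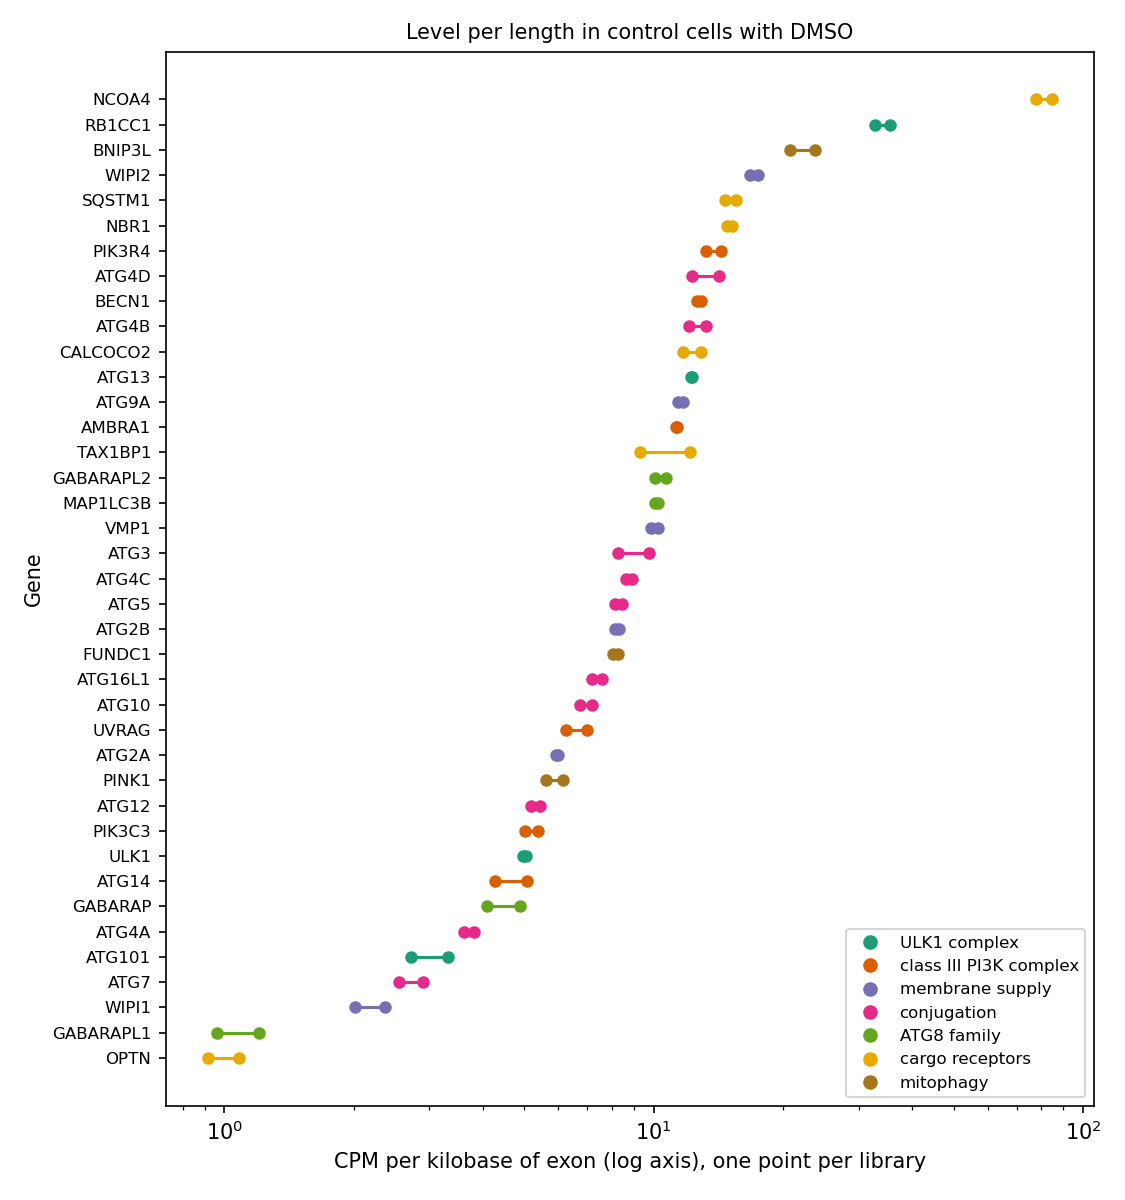
Level per length of 39 members in control cells with DMSO, in CPM per kilobase of exon on a log axis, with 1 point per library (n = 2) joined by a line and coloured by role. NCOA4 at 77.7 and 84.5 stands at the top, and OPTN at 0.917 and 1.08 at the bottom.

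A gene was called where it differed by at least 2-fold with an adjusted p below 0.1 over all genes tested. These are the thresholds of the study, which however took the adjusted p from a test across groups, where each comparison's own is used here. In the 9 comparisons of 4 libraries each, 25 of 41 members (61%) were called at least once and 16 never, where 50.6% of all 32000 genes with a count and 73.6% of 12583 protein-coding genes with a mean of 10 counts or more over the 16 libraries were called at least once.

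**Figure D2:**
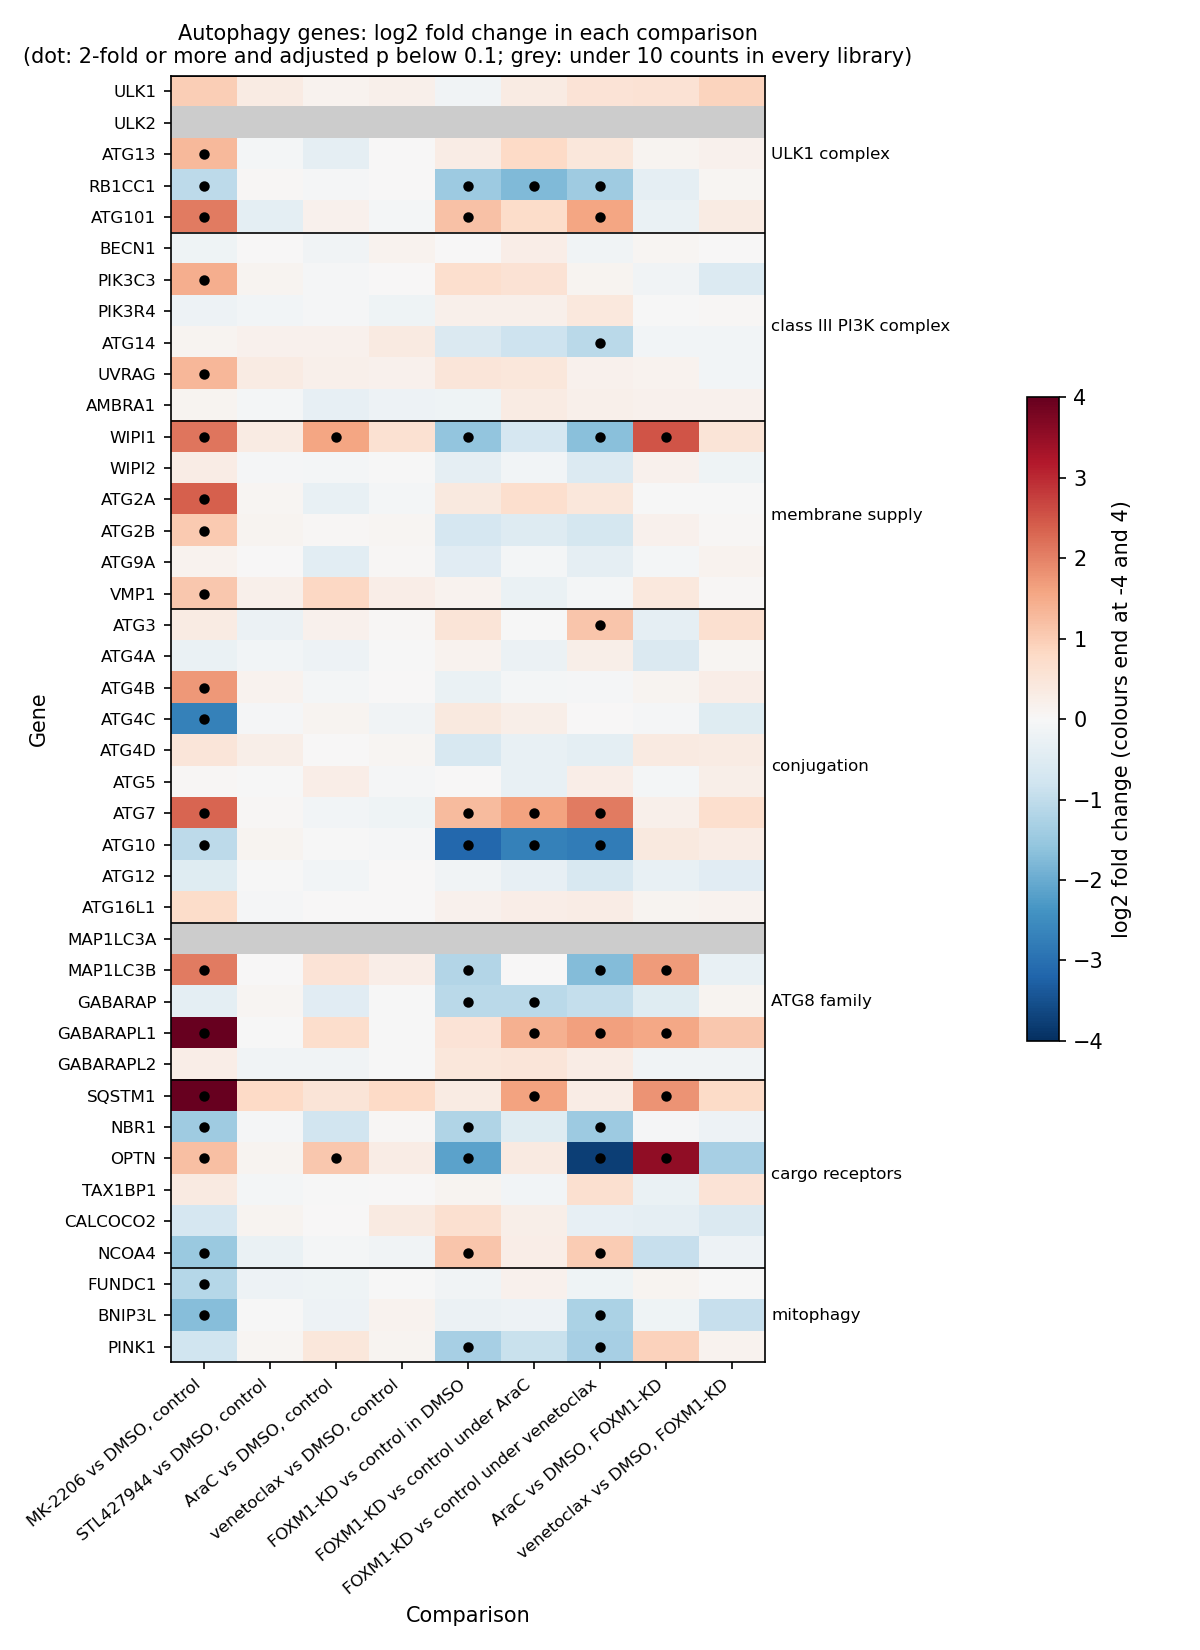
log2 fold change of each member (rows, by role) in the 9 comparisons (columns), with colours ending at -4 and 4 and a black dot where the gene was called; ULK2 and MAP1LC3A, under 10 counts in every library, are grey. Dots gather in the MK-2206 column (21 members) and the FOXM1-KD columns (11, 6 and 14), and the STL427944 and venetoclax columns hold none.

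MK-2206 against DMSO in control cells gave the most called members of the 9 comparisons. There, 14 members were called higher and 7 lower, 51.2% of the 41, where 44% of all 28905 genes tested were called and 59.9% of the 12492 expressed protein-coding genes, those whose mean was 10 counts or more. The share of members called was thus between these backgrounds. Members called higher were 34.1%, beside 26% of all genes and 26.1% of those protein-coding genes. Members called lower were 17.1%, beside 17.9% and 33.8%. The median log2 fold change was 0.32 over the members and -0.29 over the protein-coding genes, and the latter became -0.51 with total counts as the only scaling and -0.18 with DESeq2 size factors. In such bulk RNA, fewer cells of a type and less RNA per cell cannot be told apart.

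SQSTM1 (chr5:179806398-179838078, plus strand, GRCh38), the receptor for ubiquitin-tagged cargo, was at 110 and 117 CPM with DMSO and reached 2181 and 1540 CPM with MK-2206. This is 17.1-fold, a log2 fold change of 4.10 ± 0.24 (SE, adjusted p = 6.28e-54). GABARAPL1 (chr12:10212458-10223128, plus strand), an ATG8 protein and a known FOXO target, stood at 3.89 and 4.89 CPM with DMSO and 90.4 and 87.15 with MK-2206 (log2 fold change 4.40 ± 0.17, adjusted p = 2.46e-38). These were the largest differences among the members, and no MK-2206 library came near the DMSO values. Its relative MAP1LC3B, the ATG8 protein most used to mark autophagosomes, was at 51.6 and 50.8 CPM with DMSO and 221 and 187 with MK-2206 (log2 fold change 2.06 ± 0.10, adjusted p = 8.35e-13). GABARAP (-0.39) and GABARAPL2 (0.26) were not called.

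Among the genes of membrane supply, 4 of 6 were called higher and none lower. ATG2A was at 47.0 and 46.5 CPM with DMSO and at 303 and 167 with MK-2206 (log2 fold change 2.39 ± 0.41, adjusted p = 1.19e-16). WIPI1, which reads the lipid made by the class III PI3-kinase, was at 6.85 and 8.08 CPM against 26.7 and 35.8 (2.14 ± 0.26, adjusted p = 1.19e-10). ATG2B (1.06) and VMP1 (1.07) were called with values close to the 2-fold limit, while the paralogue WIPI2 and ATG9A were not called. VMP1 was uneven in the treated libraries, at 133 and 266 CPM.

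Of the conjugation genes, ATG7 was at 25.7 and 22.6 CPM with DMSO and at 125 and 108 with MK-2206 (log2 fold change 2.34 ± 0.12, adjusted p = 9.98e-15). ATG4B and ATG4C, proteases of the same family, went opposite ways. ATG4B was at 88.0 and 80.4 CPM against 286 and 252 (1.75 ± 0.09, adjusted p = 5.57e-10). ATG4C was at 26.9 and 27.8 CPM against 3.00 and 4.85 (-2.71 ± 0.37, adjusted p = 1.25e-13), the lowest fold change among the members. ATG10, an E2-like enzyme that joins ATG12 to ATG5, was called lower at -1.03. In the initiation and lipid kinase complexes, ATG101 (2.08), ATG13 (1.28), PIK3C3 (1.44) and UVRAG (1.32) were called higher and RB1CC1 (-1.03) lower, whereas BECN1 (-0.16), PIK3R4, ATG14 and AMBRA1 were not called.

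Receptors also split. OPTN was higher (log2 fold change 1.19, adjusted p = 0.00229 by edgeR) beside SQSTM1, and NCOA4 and NBR1 were lower. NCOA4 was at 310 and 337 CPM with DMSO and 83.8 and 136 with MK-2206 (-1.48 ± 0.38, adjusted p = 1.07e-07), and NBR1, which like SQSTM1 binds ubiquitin, was at 125 and 128 against 40.4 and 49.6 (-1.42 ± 0.17, adjusted p = 2.04e-06). Of the mitophagy genes, BNIP3L (98.4 and 86.1 CPM against 25.9 and 28.6, log2 fold change -1.69, adjusted p = 3.47e-08 by edgeR) and FUNDC1 (-1.16) were lower. PINK1 had -0.79 and was not called. No mitophagy gene was higher, in the libraries whose mitochondrial share of counts was raised. The part of that share and of the low depth in these values was not tested.

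Leaving out any 1 library left 14 of these 21 calls in place. Without MK-2206 replicate 2, however, PIK3C3 (0.80), VMP1 (0.44), OPTN (0.80), ATG2B (0.90) and ATG10 (-0.58) were under 2-fold while ULK1 and ULK2, the latter with at most 5 counts, gained a call, and without replicate 1 RB1CC1 was (-0.72). Without DMSO replicate 1 or 2 the calls of ATG10, ATG2B, FUNDC1, OPTN, RB1CC1 and VMP1 were lost, at values of -0.99 and -1.07, 1.06 and 1.05, -1.15 and -1.16, 1.07 and 1.32, -1.10 and -0.96, and 1.08 and 1.05, which left 11 members higher and 4 lower in either case.

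Against FOXM1-KD cells with DMSO, a reference chosen after the marker genes were seen, the MK-2206 libraries had 12 members higher and 5 lower. This is 41.5% of members, where 36.8% of all genes and 51.5% of expressed protein-coding genes were called. Higher against either reference were 9 members, WIPI1, ATG2A, ATG2B, ATG4B, ATG7, MAP1LC3B, GABARAPL1, SQSTM1 and OPTN, and lower against either were 4, ATG4C, NCOA4, FUNDC1 and BNIP3L. Of all genes 16% and 9.01% were so, and of protein-coding genes with a mean of 10 counts or more 15.4% and 20.2%. The comparisons share the MK-2206 libraries, so these counts are not independent. SQSTM1 differed from FOXM1-KD cells by 3.75 ± 0.36 on the log2 scale (adjusted p = 2.12e-22), GABARAPL1 3.82 ± 0.08 (5.07e-19), WIPI1 3.70 ± 0.71 (1.15e-14) and OPTN 3.29 ± 0.52 (7.64e-09). The values of OPTN and WIPI1 were higher against FOXM1-KD cells than against control cells (1.19 and 2.14), and that of ATG7 was lower (1.04 against 2.34).

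ATG10 changed sign with the reference, at -1.03 against control cells and 2.07 ± 0.63 (adjusted p = 2.61e-05) against FOXM1-KD cells. Its levels with MK-2206 were 24.9 and 10.9 CPM, between 39.1 and 36.7 in control cells and 3.60 and 5.01 in FOXM1-KD cells. Called against control cells alone were 7 members, ATG13, RB1CC1, ATG101, PIK3C3, UVRAG, VMP1 and NBR1 (17.1%, beside 12.7% of all genes and 19.1% of those protein-coding genes). Of these, ATG13 (0.95), ATG101 (0.88), UVRAG (0.80), PIK3C3 (0.73) and VMP1 (0.89) were under 2-fold against FOXM1-KD cells but had an adjusted p below 0.1. For NBR1 the MK-2206 libraries (40.4 and 49.6 CPM) lay just under the FOXM1-KD libraries (57.3 and 52.05), with a log2 fold change of -0.25 that was not called. ULK1 (1.07), ATG4D (1.09) and CALCOCO2 (-1.32) were called against FOXM1-KD cells alone (7.32%, beside 5.8% and 10%). Without MK-2206 replicate 1 the calls of ATG10 (1.32), ULK1 (0.71), ATG4D (0.32), ATG7 (0.89), CALCOCO2 (-1.15) and FUNDC1 (-1.25) were lost, and without replicate 2 that of FUNDC1 (-0.92). Without FOXM1-KD DMSO replicate 1 those of ATG4D (0.92), ATG7 (1.06), CALCOCO2 (-0.97) and FUNDC1 (-1.20) were lost, and without its replicate 2 those of ULK1 (0.81), ATG4D (1.28), ATG7 (1.02) and FUNDC1 (-0.88).

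**Figure D3:**
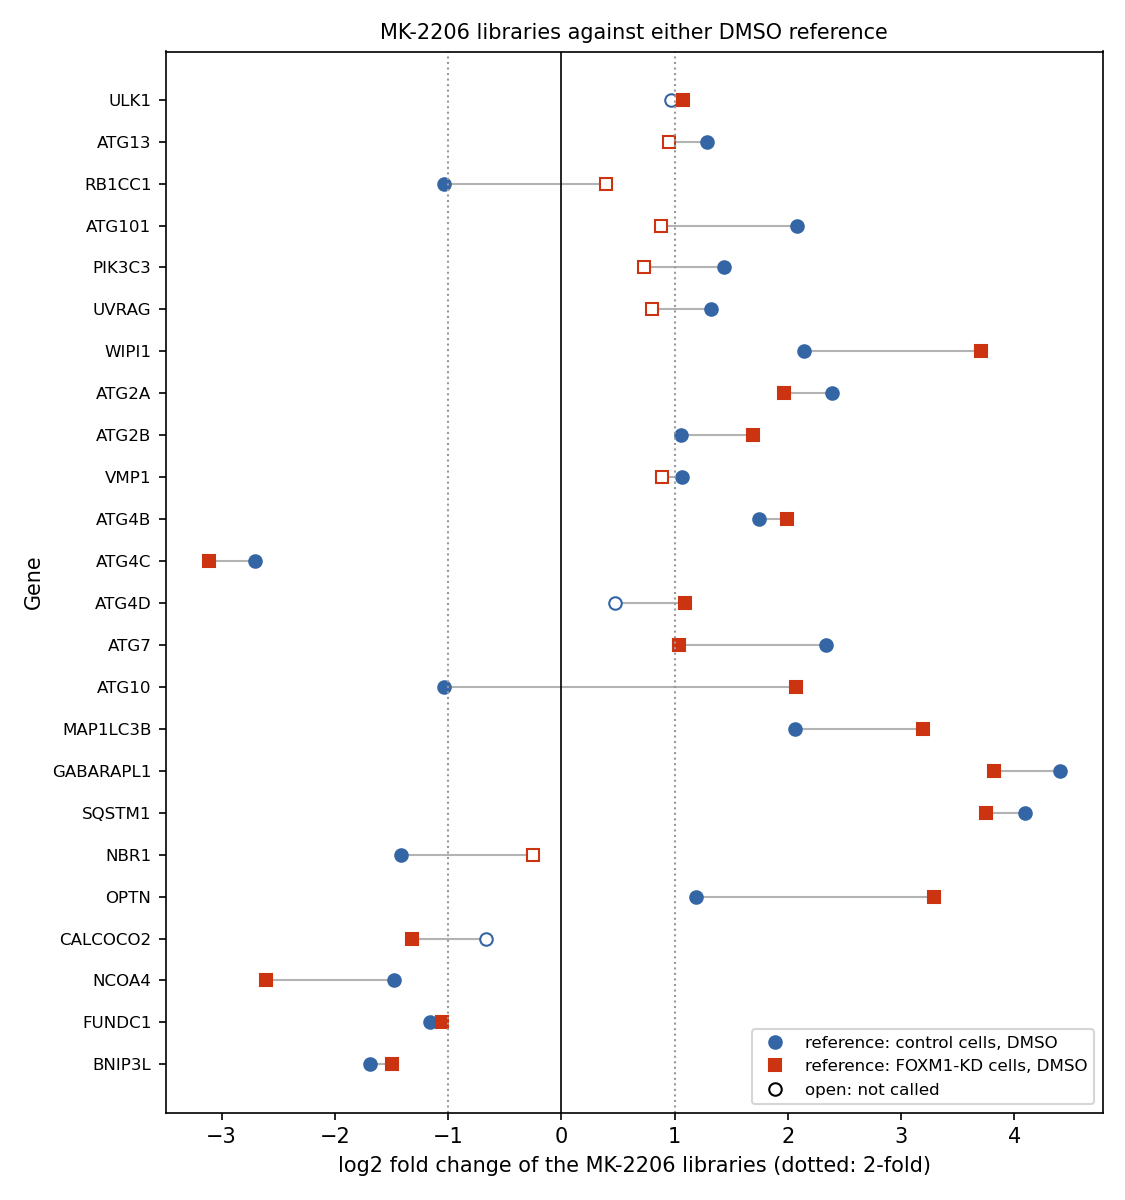
log2 fold change of the MK-2206 libraries against control cells with DMSO (circles) and FOXM1-KD cells with DMSO (squares) for the members called against at least 1 of them; filled symbols were called and dotted lines mark 2-fold. SQSTM1 and GABARAPL1 lie beyond 3.7 with either reference, and ATG10 falls on opposite sides of 0.

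FOXM1-KD cells were compared with control cells in DMSO, AraC and venetoclax, which asks what the lines differ in with and without drug. In DMSO, 3 members were higher and 8 lower (26.8%), where 25.1% of all genes and 33.1% of expressed protein-coding genes were called. Under AraC 3 were higher and 3 lower (14.6%, against 29.3% and 37.3%), and under venetoclax 5 were higher and 9 lower (34.1%, against 24.3% and 36.9%). In DMSO and under venetoclax the share of members lay near the backgrounds. Under AraC it was lower with the 2-fold limit and, by adjusted p alone, 41.5% of members beside 43.3% of all genes and 62.6% of expressed protein-coding genes. Over the members the median log2 fold changes were 0.01, -0.03 and -0.07, and over protein-coding genes they were 0.02, -0.02 and 0.01.

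RB1CC1, ATG7 and ATG10 were called in the same direction in all 3 comparisons (7.32% of members, beside 12.1% of all genes and 24% of protein-coding genes with a mean of 10 counts or more). ATG10 (chr5:81972023-82276857, plus strand) was at 39.1 and 36.7 CPM in control cells with DMSO and at 3.60 and 5.01 in FOXM1-KD cells with DMSO, a log2 fold change of -3.13 ± 0.26 (adjusted p = 0.00268). Under AraC it was at 38.4 and 37.4 against 5.66 and 6.21 CPM (-2.71 ± 0.07, adjusted p = 1.63e-24), and under venetoclax at 35.1 and 37.1 against 5.74 and 4.72 (-2.79 ± 0.15, adjusted p = 3.9e-08). Every FOXM1-KD library lay under 7 CPM and every control-cell library but those of MK-2206 above 35.

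ATG7 (chr3:11272309-11557665, plus strand) moved the other way. It was at 25.7 and 22.6 CPM in control cells with DMSO and 58.8 and 56.6 in FOXM1-KD cells (log2 fold change 1.27 ± 0.10, adjusted p = 0.00517), and the difference was 1.59 ± 0.15 under AraC and 2.08 ± 0.23 under venetoclax, where FOXM1-KD cells had 104 and 77.3 CPM. RB1CC1 was at 249 and 271 CPM in control cells with DMSO and 100 and 87.9 in FOXM1-KD cells (-1.46 ± 0.10, adjusted p = 0.00342), at -1.75 ± 0.38 under AraC and at -1.41 ± 0.36 under venetoclax. Thus ATG7 was higher and ATG10, which works beside it on ATG12, lower, while ATG12 and ATG5 were not called in any comparison.

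The promoters of ATG7 and ATG10 are shown because these genes had opposite calls in all 3 comparisons of the lines, and those of GABARAPL1 and MAP1LC3B because they hold a motif and differed most among the ATG8 genes. Each covers 250 bases before to 50 after the start given by RefSeq on GRCh38.p14, all on the plus strand, at chr3:11272147-11272446 for ATG7, chr5:81971773-81972072 for ATG10, chr12:10212627-10212926 for GABARAPL1 and chr16:87392086-87392385 for MAP1LC3B. Capitals mark a match to a searched motif.
ATG7: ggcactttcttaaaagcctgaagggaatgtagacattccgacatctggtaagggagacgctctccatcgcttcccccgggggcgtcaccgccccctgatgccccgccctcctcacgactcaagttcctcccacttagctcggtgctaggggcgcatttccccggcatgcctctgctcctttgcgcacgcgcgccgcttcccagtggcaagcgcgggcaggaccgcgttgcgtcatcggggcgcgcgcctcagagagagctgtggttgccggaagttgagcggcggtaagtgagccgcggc
ATG10: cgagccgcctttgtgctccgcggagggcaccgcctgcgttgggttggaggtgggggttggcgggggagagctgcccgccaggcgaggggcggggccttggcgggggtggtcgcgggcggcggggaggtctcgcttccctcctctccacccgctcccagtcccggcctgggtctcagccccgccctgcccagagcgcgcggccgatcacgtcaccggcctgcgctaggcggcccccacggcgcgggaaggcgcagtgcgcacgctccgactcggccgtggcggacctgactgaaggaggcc
GABARAPL1: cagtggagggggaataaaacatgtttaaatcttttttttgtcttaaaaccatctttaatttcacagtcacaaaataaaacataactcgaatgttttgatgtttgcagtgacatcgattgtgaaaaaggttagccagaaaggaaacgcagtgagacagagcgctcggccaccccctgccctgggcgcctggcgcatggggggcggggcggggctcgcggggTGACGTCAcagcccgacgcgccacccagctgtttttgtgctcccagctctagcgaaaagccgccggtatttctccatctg
MAP1LC3B: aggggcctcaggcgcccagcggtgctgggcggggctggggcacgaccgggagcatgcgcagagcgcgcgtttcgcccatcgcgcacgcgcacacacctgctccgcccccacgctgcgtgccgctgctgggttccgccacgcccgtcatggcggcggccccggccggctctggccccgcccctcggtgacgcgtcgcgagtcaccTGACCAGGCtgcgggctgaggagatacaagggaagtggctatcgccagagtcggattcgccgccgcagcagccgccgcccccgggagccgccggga

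RefSeq promoters were matched for 35 of the 41 members and 6 motifs were searched on either strand. The forkhead letters GTAAACA, close to the sites of FOXO and FOXM1 proteins, were in 1 member promoter (CALCOCO2), or 2.86%, and in 3.41% of all 27305 promoters. The E-box CACGTG was in 2 (ATG14 and ATG3, 5.71% against 7.43%), the CLEAR element bound by TFEB, which extends the E-box, in none (0.381% of all), and TTTGAA, the CHR of cell cycle genes, in 4 (11.4% against 15.4%). The antioxidant element TGACNNNGC was in 3 (ATG101, CALCOCO2 and MAP1LC3B, 8.57% against 13.6%) and the CRE, TGACGTCA, in 1 (GABARAPL1, 2.86% against 1.98%). Matches to the CLEAR element also count as E-boxes. In GABARAPL1 the CRE began 30 bases before the RefSeq start, and in MAP1LC3B the antioxidant element began 46 bases before the RefSeq start. The GABARAPL1 gene span given above, from GENCODE, begins upstream of this window, so the whole window lies inside that span. The promoters of ATG7 and ATG10 held none of the 6 motifs in this window, which says nothing of other sites.

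Different ATG8 genes and receptors were called in the 3 comparisons. MAP1LC3B was at 51.6 and 50.8 CPM in control cells with DMSO and 23.3 and 22.3 in FOXM1-KD cells (log2 fold change -1.16 ± 0.02, adjusted p = 0.00476), at 64.1 and 57.7 against 16.7 and 19.9 under venetoclax (-1.73 ± 0.15, adjusted p = 0.000323), and at 70.7 and 79.1 against 75.2 and 80.0 under AraC. Under AraC the lines overlapped in MAP1LC3B. OPTN (chr10:13099449-13138308, plus strand) was at 4.71 and 5.55 CPM in control cells with DMSO and 1.48 and 0.844 in FOXM1-KD cells (-2.13 ± 0.41, adjusted p = 0.0161), and under venetoclax at 5.98 and 6.49 against 0.547 and 0.358 (-3.77 ± 0.31, adjusted p = 1.76e-07), where the FOXM1-KD values are 8 and 6 counts. GABARAP was called lower in DMSO (-1.08) and under AraC (-1.08). GABARAPL1 was called higher under AraC (1.41) and venetoclax (1.65), but the latter fell to 0.73 without FOXM1-KD venetoclax replicate 1, which had 19.9 CPM against 7.17 in the other.

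Some members were called in DMSO and under venetoclax but not under AraC. WIPI1 (-1.59 in DMSO and -1.68 under venetoclax), NBR1 (-1.20 and -1.46) and PINK1 (-1.34 and -1.31) were lower in FOXM1-KD cells, and ATG101 (1.18 and 1.58) and NCOA4 (1.10 and 1.00) higher. Under AraC, WIPI1 (-0.66), NBR1 (-0.48), PINK1 (-0.88) and ATG101 (0.75) kept these directions with an adjusted p below 0.1. They missed the call there by the 2-fold limit alone, while NCOA4 had no such adjusted p. NBR1 was at 125 and 128 CPM in control cells with DMSO and 57.3 and 52.05 in FOXM1-KD cells. NCOA4 was at 310 and 337 CPM against 873 and 507, so the FOXM1-KD libraries lay far apart and both above the controls. Under venetoclax alone, ATG3, the E2-like enzyme for the ATG8 proteins, was higher (1.10) and BNIP3L (-1.28) and ATG14 (-1.07) were lower, and under AraC alone SQSTM1 was higher (1.60 ± 0.22, adjusted p = 1.58e-18). A change in the difference between the lines from DMSO to AraC was called, of all these, for SQSTM1, OPTN and MAP1LC3B, and from DMSO to venetoclax for none. ATG10 and ATG7 kept their calls whichever library was left out.

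In DMSO, leaving out control DMSO replicate 2 ended the calls of ATG101 (1.03), OPTN (-2.01), PINK1 (-1.28), WIPI1 (-1.47), GABARAP (-0.95) and NCOA4 (1.16), which left 1 member higher and 4 lower. Without control DMSO replicate 1 WIPI1 (-1.70), GABARAP (-1.19) and NCOA4 (1.04) lost theirs, without FOXM1-KD replicate 1 NCOA4 (0.63) did, and without its replicate 2 GABARAP (-0.83) did. Under AraC only GABARAP lost its call, at -0.68 without FOXM1-KD replicate 2. Under venetoclax, without FOXM1-KD replicate 1 the calls of ATG101 (1.20), ATG14 (-0.85), ATG3 (1.27), BNIP3L (-1.08), GABARAPL1 (0.73), NCOA4 (0.86) and RB1CC1 (-1.19) were lost, and without its replicate 2 those of ATG14 (-1.32), ATG3 (0.90), NBR1 (-1.35), NCOA4 (1.13), PINK1 (adjusted p = 0.413) and WIPI1 (-1.24). These left 1 higher and 6 lower, and 3 higher and 5 lower. Without venetoclax control replicate 1, the library close to STL427944 replicate 2, ATG3 (0.86), NCOA4 (0.82), PINK1 (-0.94) and WIPI1 (-1.02) lost their calls and SQSTM1 (1.28) gained one, and without replicate 2 ATG14 (-0.98) lost its call.

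AraC raised 2 members in control cells and lowered none by edgeR (4.9%, where 6.69% of all genes and 9.07% of expressed protein-coding genes were called), with 12 members at an unadjusted p below 0.05. WIPI1 was at 6.85 and 8.08 CPM with DMSO and 23.7 and 21.4 with AraC (log2 fold change 1.58 ± 0.14, adjusted p = 2.31e-05). OPTN was at 4.71 and 5.55 CPM against 9.72 and 12.0 (1.06 ± 0.19, adjusted p = 0.00195). In either gene the AraC libraries lay above both DMSO libraries.

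In FOXM1-KD cells AraC raised 5 members and lowered none (12.2%, where 11.6% of all genes and 15.8% of expressed protein-coding genes were called), with 8 members at an unadjusted p below 0.05. OPTN was at 1.48 and 0.844 CPM with DMSO and 13.2 and 15.6 with AraC, a log2 fold change of 3.55 ± 0.41 (adjusted p = 6.97e-16). WIPI1 was at 3.54 and 1.37 CPM against 15.4 and 14.0 (2.51 ± 0.67, adjusted p = 1.57e-09). SQSTM1 was at 169 and 114 CPM against 578 and 452 (1.79 ± 0.32, adjusted p = 4.18e-10). In each of these the AraC libraries lay above both DMSO libraries, and OPTN and WIPI1 started from a lower level than in control cells. MAP1LC3B was at 23.3 and 22.3 CPM against 75.2 and 80.0 (1.69 ± 0.06, adjusted p = 1.97e-07), and GABARAPL1 at 6.82 and 6.01 against 20.7 and 19.2 (1.56 ± 0.09, adjusted p = 9.21e-05). With 1 AraC library left out, the calls of these 5 were lost, with log2 fold changes of 3.67 and 3.42 for OPTN, 2.45 and 2.56 for WIPI1, 1.61 and 1.95 for SQSTM1, 1.75 and 1.64 for MAP1LC3B and 1.51 and 1.60 for GABARAPL1 without replicate 1 and 2. In control cells the same held for WIPI1 (1.50 and 1.68) and OPTN (1.21 and 0.93), and OPTN was at 0.95 without DMSO replicate 1. Without FOXM1-KD DMSO replicate 1 PINK1 was also called (1.14), and without replicate 2 NCOA4 was (-1.25).

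The difference between the lines in the response to AraC was tested as an interaction over 8 libraries. It was called for 3 members, all with the larger rise in FOXM1-KD cells (7.3% of members, where 5.13% of all genes and 9.07% of expressed protein-coding genes were called). The interaction was 2.57 ± 0.46 for OPTN (log2 scale, adjusted p = 7.67e-07), 1.35 ± 0.37 for SQSTM1 (adjusted p = 9.36e-06) and 1.25 ± 0.09 for MAP1LC3B (adjusted p = 0.0014). For WIPI1 (1.01, adjusted p = 0.14) and GABARAPL1 (0.93) a difference between the lines was not called. OPTN kept its call whichever library was left out. SQSTM1 lost it without control AraC replicate 2 (1.22) or FOXM1-KD DMSO replicate 2 (0.96), MAP1LC3B lost it without control AraC replicate 1 (1.18), and without FOXM1-KD DMSO replicate 1 WIPI1 (1.84) and GABARAPL1 (1.02) were called as well. Without FOXM1-KD DMSO replicate 2 NCOA4 (-1.23) was called with the lower response in FOXM1-KD cells.

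**Figure D4:**
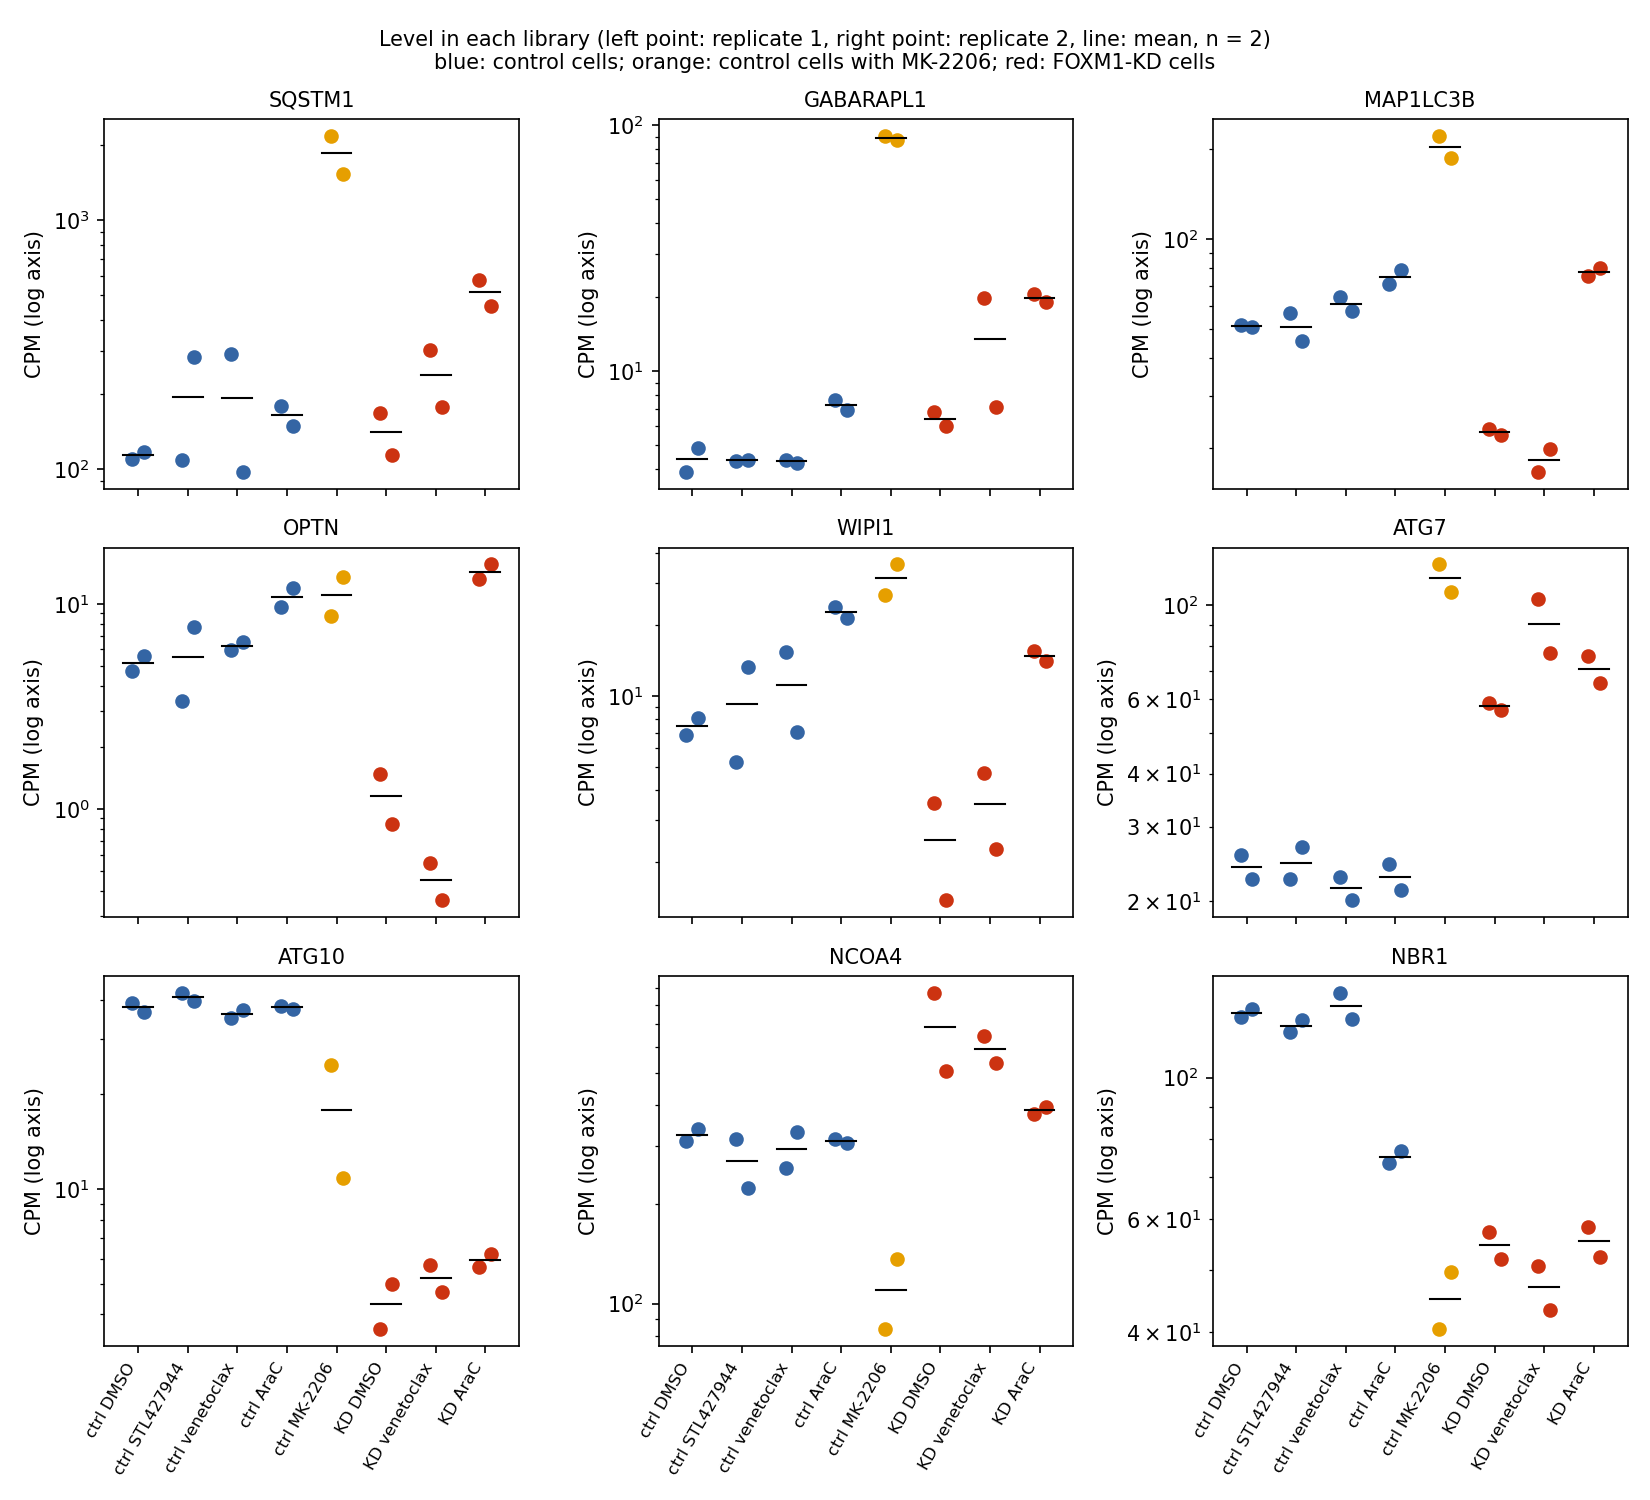
CPM of 9 members in every library on log axes, with 2 points per condition (replicates 1 and 2) and a line at their mean, for control cells (blue), control cells with MK-2206 (orange) and FOXM1-KD cells (red). OPTN falls from 4.71 and 5.55 CPM in control cells to 1.48 and 0.844 in FOXM1-KD cells with DMSO, and stands at 13.2 and 15.6 in FOXM1-KD cells with AraC.

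STL427944 and venetoclax left the members without a call. In control cells 0 members passed with STL427944 by edgeR or DESeq2, and 0 had an unadjusted p below 0.05, where 0% of 22672 genes were called. The same numbers held for venetoclax in control cells, where 0% of 22593 genes were called. The replicates correlated at r = 0.9659 with STL427944 and 0.9651 with venetoclax, beside 0.9944 for control cells with DMSO. Such spread lowers the power of these tests, so the lack of calls does not show that the drugs had no effect. Among members with at least 10 counts the log2 fold changes ran from -0.39 (ATG101) to 0.80 (SQSTM1) with STL427944, and from -0.19 (AMBRA1) to 0.79 (SQSTM1) with venetoclax. SQSTM1 was at 109 and 282 CPM with STL427944 and at 291 and 97.5 with venetoclax, so in each group 1 library lay at the DMSO level (110 and 117) and the other above it. The higher libraries were the pair that resembled each other across the protein-coding genes. Without STL427944 replicate 1 SQSTM1 was called (1.34, adjusted p = 0.0874). WIPI1 split in the same way, at 5.25 and 13.3 CPM with STL427944 and 15.3 and 7.03 with venetoclax.

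In FOXM1-KD cells venetoclax gave 0 called members by edgeR and DESeq2, with 6 at an unadjusted p below 0.05, where 2.09% of all genes and 3.62% of expressed protein-coding genes were called. GABARAPL1 was at 6.82 and 6.01 CPM with DMSO and 19.9 and 7.17 with venetoclax (log2 fold change 1.09), and OPTN at 1.48 and 0.844 against 0.547 and 0.358 (-1.34, adjusted p = 0.74). The interaction of venetoclax with the line had 0 called members, with 3 at an unadjusted p below 0.05, where 0.743% of all genes and 1.46% of expressed protein-coding genes were called.

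The 16 members not called in the 9 comparisons, 3 of which were called with MK-2206 against FOXM1-KD cells, included BECN1, the scaffold of the lipid kinase complex, whose log2 fold changes ran from -0.16 to 0.26 over the 9 comparisons. ATG5 (-0.30 to 0.26), PIK3R4 (-0.19 to 0.41), AMBRA1 (-0.32 to 0.34) and GABARAPL2 (-0.15 to 0.48) stayed in similarly narrow ranges. In the same 9 comparisons ULK1 ran from -0.13 to 0.97 and CALCOCO2 from -0.67 to 0.63. A gene on the opposite strand overlapped several members, and whether strand was used in counting was not stated in the sources used here. The mean count of PSME3 was 4104 beside 1382 for BECN1, that of ARSG 131 beside 192 for WIPI1, and that of FBXO31 500 beside 1012 for MAP1LC3B. KRI1 had 852 beside 472 for ATG4D, PTRH2 791 beside 2228 for VMP1, and a long non-coding RNA 383 beside 1406 for NBR1. These are overlaps of whole genes, and whether their exons overlap was not examined. Reads of any shared stretch could not be told apart without strand.

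Other genes of the pathway, 55 in 4 lists (other machinery, fusion with the lysosome, other selective receptors and regulators), were tested in the same fits. With MK-2206 13 were higher and 15 lower of 54 tested (51.9%, beside 44% of all genes and 59.9% of expressed protein-coding genes). Of 13 genes for fusion with the lysosome 1 was higher and 5 lower (46.2% called). Among these were the SNARE VAMP8 (log2 fold change -2.77) and the HOPS subunits VPS18 (-2.09), VPS41 (adjusted p = 6.11e-11 by edgeR) and VPS33A (-1.79). Of the 13 regulators tested 4 were higher and 3 lower (53.8% called). TP53INP2 (4.14), DDIT4 (3.33) and SESN2 (2.65), stress-responsive regulators, were higher and DRAM1 (-2.27), a lysosomal protein induced by p53, lower. MITF, a relative of TFEB, had 0 and 1 counts in control cells with DMSO, 531 and 801 in control cells given MK-2206, and 222 and 195 in the FOXM1-KD line with DMSO. Of the receptors, STBD1 (2.97) and CALCOCO1 (1.95) were higher and SEC62 (-2.35) lower, and of the other machinery WDR45 (2.00) was higher and EI24 (-2.06) lower.

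Between FOXM1-KD and control cells, 5 of the 53 tested were higher and 8 lower in DMSO, 10 and 5 under AraC, and 9 and 8 under venetoclax. These are 24.5%, 28.3% and 32.1% of the lists, beside 25.1%, 29.3% and 24.3% of all genes. Of expressed protein-coding genes 33.1%, 37.3% and 36.9% were called. Of the 13 regulators, 2 were higher and 5 lower in DMSO, 3 and 3 under AraC, and 3 and 5 under venetoclax. The highest log2 fold changes among the regulators were 8.34, 7.11 and 10.44 in that order. DRAM1 (log2 fold change -3.34, -3.35 and -2.79), SESN1 (-3.23, -2.69 and -3.22) and FOXO1 (-2.39, -2.81 and -2.98) were lower in all 3. AraC raised TP53INP2 (1.65), TFEB (1.38) and DRAM1 (1.06) in control cells, and TP53INP1 (2.14), TP53INP2 (1.40), SESN2 (1.07) and DRAM1 (1.04) in FOXM1-KD cells. All of these were regulators, and no gene of the other 3 lists was called with AraC in either line. The calls are 5.7% of the lists in control cells and 7.5% in FOXM1-KD cells. Beside these stand 6.69% and 11.6% of all genes, and 9.07% and 15.8% of expressed protein-coding genes. The AraC interaction was called for SESN2 (2.14), TP53INP1 (2.13), DDIT4 (1.74) and TFE3 (1.13), all larger in FOXM1-KD cells. This is 7.5% of the lists, beside 5.13% of all genes and 9.07% of expressed protein-coding genes. With STL427944 or venetoclax in control cells 0 were called by edgeR, with 3 and 2 at an unadjusted p below 0.05. With venetoclax in FOXM1-KD cells 1 was called, SESN3 (1.57). This is 1.9%, beside 2.09% of all genes and 3.62% of expressed protein-coding genes.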

How the data were processed

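Total RNA of KG-1 cells was sequenced after ribosomal RNA depletion. The methods name the Stranded CORALL kit and 1 batch, and the labels name another kit. According to the methods, STAR aligned the reads to hg38 and featureCounts counted them on Ensembl genes; versions, the strand setting and the use of molecular identifiers in counting are not given in the sources used here. The raw counts per gene deposited by the authors were used (7351755 to 21362546 per library, median 18106218), which limits precision for genes with few counts. The SE measures the spread between the 2 replicates. The edgeR p-values also draw on the spread of the other genes in the fit, so they do not follow from the SE alone.

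Symbols were taken from GENCODE release 44, which held 43177 of 43836 genes. CPM were scaled by TMM. Each comparison used edgeR 4.0.16 (R 4.3.3, glmQLFit and glmQLFTest, prior count 0.125) on its own 4 libraries on every gene with a count in any of them, and p-values were adjusted over those genes by Benjamini-Hochberg; calls needed a 2-fold change and adjusted p below 0.1, the study's thresholds, although the study took the adjusted p from a test across groups (tried here as an alternative). Interactions used 8 libraries. The SE is that of the difference of mean log2 CPM. Levels per kilobase used merged exon length. Alternatives were DESeq2 1.42.0, other scalings, filters, prior counts, thresholds and fits over all 16 libraries, a replicate block, and leaving out each library, where a lone library is assumed to vary like the others. On simulated counts for FOXM1-KD against control in DMSO, 195 of 200 genes changed by 2 on the log2 scale were recovered among 20558, and 194 of 200 among 20777 for the AraC interaction, where 8.06% of calls were false. These counts were drawn from the control DMSO means with the same fixed spread for every gene, and only well-counted genes were changed. Recovery of 2-fold changes, or with the spread of the real libraries, was not tested.

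Statistics were printed for called members, largest first, with counts and ranges for the rest. From the other lists up to 4 called genes with the largest change and at least 10 counts on average were named. Members and lists were chosen with earlier results of these data known.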

Additional observations from a re-analysis of the deposited data

Results flagged for a closer look

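The response to AraC differed between FOXM1-KD and control cells in 3 members by the interaction term (edgeR, 8 libraries), 7.3% of members, beside 5.13% of all genes and 9.07% of expressed protein-coding genes. For OPTN the log2 fold change with AraC was 3.55 in FOXM1-KD cells and 1.06 in control cells, an interaction of 2.57 (adjusted p = 7.67e-07). For SQSTM1 the values were 1.79 and 0.52, an interaction of 1.35 (adjusted p = 9.36e-06), and for MAP1LC3B they were 1.69 and 0.53, an interaction of 1.25 (adjusted p = 0.0014). The AraC libraries of FOXM1-KD cells lay above both DMSO libraries of those cells in all 3 genes. With DMSO, OPTN and MAP1LC3B stood lower in FOXM1-KD than in control cells (MAP1LC3B at 23.3 and 22.3 against 51.6 and 50.8 CPM). Under AraC the lines overlapped in MAP1LC3B. OPTN kept this call whichever library was left out, whereas SQSTM1 lost it without control AraC replicate 2 (1.22) or FOXM1-KD DMSO replicate 2 (0.96) and MAP1LC3B without control AraC replicate 1 (1.18).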

How the results depend on the processing

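No called member changed direction under any alternative run. Of 79 calls, 76 held with DESeq2, 76 with DESeq2 size factors in edgeR, 72 with total counts as the only scaling, 75 with all 16 libraries in one fit and 79 with a prior count of 2. Members called lower with MK-2206 went from 7 to 4 with the filterByExpr filter. Without a fold threshold, members called with AraC in control cells went from 2 higher and 0 lower to 7 and 3, FOXM1-KD against control from 3 and 8 to 7 and 13 in DMSO and from 3 and 3 to 9 and 8 under AraC, and 1 member was lower with AraC in FOXM1-KD cells and 1 in the AraC interaction. With all 16 libraries in one fit, 1 member was higher with AraC in control cells. With the adjusted p of a test across all 8 groups, venetoclax in FOXM1-KD cells had 1 higher (GABARAPL1) and 1 lower (OPTN), and the venetoclax interaction 1 higher and 2 lower. Leaving out 1 library gave 11 to 14 members higher and 4 to 6 lower with MK-2206, 9 to 14 and 3 to 4 against FOXM1-KD cells, 0 to 1 and 0 with STL427944, 0 to 2 and 0 with AraC in control cells, and 0 to 6 and 0 to 1 with AraC in FOXM1-KD cells. For FOXM1-KD against control it gave 1 to 3 and 4 to 8 in DMSO, 3 and 2 to 3 under AraC and 1 to 5 and 5 to 8 under venetoclax, and for the AraC interaction 2 to 5 and 0 to 1; venetoclax in either line and its interaction stayed at 0. Replicate numbers in the labels carry no stated pairing, though same-numbered libraries of the numbered groups deviated together (correlations 0.415 to 0.689 over 11818 genes). With the replicate block, FOXM1-KD against control kept 3 higher and 3 lower under AraC and 5 higher and 9 lower under venetoclax, and no call changed among the 20. Depth limits ULK2, MAP1LC3A and OPTN in FOXM1-KD cells most.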
